A study of Mus musculus with 6 samples.

Results

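Dgat1, Dgat2, Agpat2, Srebf1 and Lpl, 5 genes of triglyceride synthesis, its control and fatty acid supply, were read in a comparison of RNA pools from mouse epididymal white fat. They are 5 of the 13409 genes named on the array, each with 1 probe, and were picked by gene symbol with the pool ratios of these arrays known. Their pool ratios are therefore given as a description, with no test. The pools came from male C57BL/6J mice, 12 weeks old, that received either saline or CL-316,243 at 1 mg per kg of body weight, with fat collected after 3 hr. CL-316,243 is an agonist of the beta3-adrenergic receptor of fat cells. RNA of 6 mice was combined for each treatment, and both pools were hybridised together on 6 two-colour arrays. Arrays 1 to 3 carried the CL-316,243 pool in channel 1 and arrays 4 to 6 carried it in channel 2. The 6 arrays are repeat measurements of 1 pool per treatment, so spread and p-values cover arrays and not mice.

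The deposited values are log ratios of the channels, taken here as log2. A natural log in place of log2 would enlarge every value by a factor of 1.44. The labels do not say which pool was divided by which. Signs were used as deposited, with the same pool taken as the numerator on all 6 arrays although the channels were swapped. A positive ratio means more RNA in the numerator, whichever pool that is, and all signs below would flip for the opposite choice. Ratios hold no level, so the tissue label could not be checked by the abundance of fat markers. In bulk tissue, fewer cells of a type and less RNA per cell cannot be told apart. The columns of the deposited table are empty only at their ends, from 1 row on array 6 to 724 on array 2, and had to be placed on the probe numbers before rows could be compared. Placement kept 61.8% of probes on array 2 and 91.6% to 99.8% on the other arrays. Placed arrays of the same orientation had Spearman correlations over probes of 0.09 to 0.42, against -0.02 to 0.17 between orientations. A position was taken as determined where its probability in the placement, the posterior, was at least 0.95, and a gene has no value on an array where it was not. Probe names rest on the platform annotation, and of 17 genes with 2 probes that passed the pool test described below, 14 had both on the same side of 0.

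Triglyceride is built in the endoplasmic reticulum by adding fatty acids, activated as acyl-CoA, to glycerol 3-phosphate. AGPAT enzymes add the acyl chain that makes phosphatidic acid, lipins remove its phosphate, and DGAT1 or DGAT2 adds the last chain to diacylglycerol. DGAT1 and DGAT2 do the same reaction but belong to unrelated protein families. SREBP-1, the product of Srebf1, is a membrane-bound transcription factor that, once cut free, activates genes of fatty acid synthesis. Lipoprotein lipase, the product of Lpl, acts at the capillary wall and frees fatty acids from circulating lipoproteins. Beta3-adrenergic agonists start lipolysis in fat cells, which returns fatty acids that can be activated and esterified again.

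Dgat1, Agpat2, Dgat2 and Lpl had positive ratios on every array that measured them, and Srebf1 had negative ratios on every such array. Agpat2 had a ratio of 1.87 ± 0.20 (SD, n = 3 arrays), which is 3.66-fold. Dgat2 was at 2.28-fold, Dgat1 at 2.23-fold and Lpl at 1.83-fold. Srebf1 was 1.83-fold lower in the numerator pool, with a log2 ratio of -0.87. These figures give no order, since they do not rest on the same arrays: Dgat1 and Agpat2 were measured in 1 orientation, Srebf1 and Lpl on 5 arrays, and Dgat2 on all 6. With a minimum posterior of 0.5 or each column placed alone, Agpat2 was at 0.89 or 0.97, below Dgat2 at 1.19 in both.

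**Figure D1:**
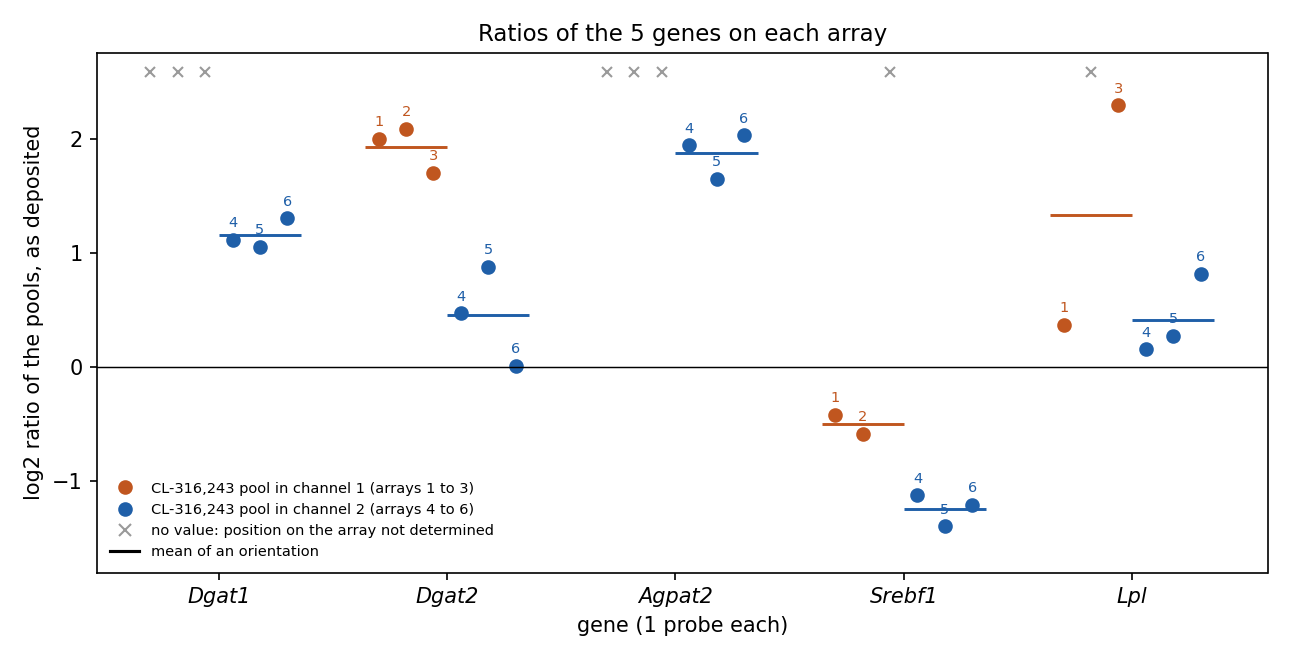
Log2 ratio of the pools (vertical axis) for each of the 5 genes (horizontal axis), with 1 numbered point per array, coloured by the channel of the CL-316,243 pool; short lines are orientation means and grey crosses at the top are arrays with no value. Dgat1 and Agpat2 have points on arrays 4 to 6 alone, Dgat2 is between 1.70 and 2.09 in orange and between 0.01 and 0.88 in blue, Srebf1 is below 0 throughout, and Lpl has 1 point at 2.29.

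Agpat2 (Entrez 67512) encodes the acyltransferase that turns lysophosphatidic acid into phosphatidic acid, and its loss in humans causes a lack of body fat. Its log2 ratios on arrays 4, 5 and 6 were 1.94, 1.65 and 2.03. All 3 were high, at percentiles 99.4, 99.5 and 99.9 of the probes on those arrays. Arrays 1, 2 and 3 gave no determined value for Agpat2. Positions allowed on array 1 run through 11 spots, whose ratios range from -2.36 to 0.18, and the best of them (posterior 84.9%) holds -0.26. On array 3, 23 spots are possible, with ratios from -0.74 to 0.74 and 0.07 at the best position (posterior 84.9%). On array 2, 193 spots are possible and the best position has a posterior of 14.3%, so nothing can be read there. The value of Agpat2 with the CL-316,243 pool in channel 1 is thus not determined, but none of the spots possible on arrays 1 and 3 reaches the ratios of arrays 4 to 6.

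Dgat1 (Entrez 13350), the acyltransferase of the last step, has its probe 26 numbers before that of Agpat2, in the same undetermined stretch of arrays 1 to 3. Its log2 ratios on arrays 4, 5 and 6 were 1.11, 1.05 and 1.30, a mean of 1.16 ± 0.13 (SD, n = 3 arrays). The values were close together and at percentiles 97.0, 98.0 and 99.4 of their arrays. Agpat2 was above Dgat1 on each of these 3 arrays, by 0.60 to 0.83 on the log2 scale. The 11 spots possible on array 1 hold -1.03 to 0.50 and the 23 possible on array 3 hold -0.60 to 1.24. The best positions hold -0.28 and 0.01, at posteriors of 84.9% and 85.1%. Both probes lie close together, so 1 position serves both if no spot was lost between them. Under that condition, 0 of 11 positions on array 1 and 0 of 23 on array 3 give both genes a ratio of at least 0.5. With losses between them allowed, 0 of 66 placements on array 1 and 2 of 276 on array 3 do. So array 1 holds no placement, and array 3 few, in which both genes reach that size.

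Dgat2 (Entrez 67800), the other enzyme of the last step, was placed on all 6 arrays with posteriors of 100%. Its log2 ratios were 2.00, 2.09 and 1.70 on arrays 1 to 3 and 0.47, 0.88 and 0.01 on arrays 4 to 6. On array 6 Dgat2 stood at the middle of all probes, at percentile 50.5. The mean was 1.93 ± 0.20 (SD, n = 3 arrays), or 3.81-fold, with the CL-316,243 pool in channel 1. With that pool in channel 2 it was 0.45 ± 0.43 (SD, n = 3 arrays), or 1.37-fold. The mean over both orientations was 1.19 ± 0.13 (SE). On arrays 4 to 6, the 3 that measured both genes, Dgat1 was above Dgat2, by 0.17 to 1.29.

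Whether ratios differ by orientation was tested for all genes, as this term is not the contrast on which the genes were picked. The difference for Dgat2, channel 2 minus channel 1, was -1.48 ± 0.26 (SE), which did not pass (limma adjusted p = 0.357). Over the 12451 genes tested, 1 gene or 0.00803% passed, and 1316 had an unadjusted p under 0.05. Of the 5 genes, 3 were tested and 0 passed. The gene that passed, named after its values were seen, is Theg, a spermatid gene, at 4.88, 3.86 and 3.53 on arrays 1 to 3 and -2.63, -2.99 and -3.32 on arrays 4 to 6. The orientation difference of Dgat2 is wide against the median size over all genes tested, 0.242. A missed threshold with 3 arrays a side does not show that the orientations gave the same value.

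Srebf1 (Entrez 20787) had log2 ratios of -0.42 and -0.59 on arrays 1 and 2 and -1.12, -1.39 and -1.20 on arrays 4, 5 and 6. All 5 were negative. On array 3 the position lies between 2 spots that hold -0.08 and 0.08, both nearer to 0 than any other array's value. The mean was -0.50 ± 0.12 (SD, n = 2 arrays) over arrays 1 and 2 and -1.24 ± 0.14 (SD, n = 3 arrays) over arrays 4 to 6. Arrays 4 to 6 placed Srebf1 among the lowest 1.19%, 0.194% and 0.329% of probes, arrays 1 and 2 among the lowest 11.6% and 11.9%. The difference between orientations, -0.74 ± 0.23 (SE), did not pass (limma adjusted p = 0.386). The mean over both, -0.87 ± 0.12 (SE), leaves array 3 out.

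Promoter windows of 250 bases before the transcription start were taken from the RefSeq table (GRCm38.p6), which matched Agpat2 with 1 start and Srebf1 with 3. They are shown because the table holds them for an enzyme with positive ratios and for the 1 gene with negative ratios. Capitals mark CCAAT, the site of the factor NF-Y that often works beside SREBPs, and GGGCGG, the core of an Sp1 site, on either strand. The Agpat2 window is chr2:26604418-26604667, minus strand, and that of Srebf1, at the start nearest to the 3′ end of the gene, is chr11:60210472-60210721, minus strand. Both are written 5′ to 3′ along the gene.
Agpat2: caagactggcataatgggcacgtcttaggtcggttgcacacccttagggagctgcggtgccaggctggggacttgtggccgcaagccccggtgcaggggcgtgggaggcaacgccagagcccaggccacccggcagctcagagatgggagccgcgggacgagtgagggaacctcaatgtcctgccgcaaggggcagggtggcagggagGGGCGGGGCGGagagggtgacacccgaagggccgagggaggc
Srebf1: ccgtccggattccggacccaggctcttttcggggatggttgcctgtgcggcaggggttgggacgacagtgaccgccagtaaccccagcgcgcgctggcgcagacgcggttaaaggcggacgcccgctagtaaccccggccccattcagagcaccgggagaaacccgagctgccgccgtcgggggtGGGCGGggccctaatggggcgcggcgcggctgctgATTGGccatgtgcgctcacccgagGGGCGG

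The Agpat2 window held the Sp1 core at -42 and -37, 2 matches that share a base, and no CCAAT box. The printed Srebf1 window held the Sp1 core at -65 and -6 and the CCAAT box at -30 on the other strand. Of the Srebf1 windows that are not printed, chr11:60222582-60222831 held 1 CCAAT box and chr11:60220628-60220877 held 2 Sp1 cores. The Sp1 core occurs in 32.7% and the CCAAT box in 33.8% of the 32851 windows of the table. An E-box, written CANNTG, occurred 2 times in the first of the unprinted windows and 1 time in the printed Srebf1 window, and 66.2% of all windows hold it. Its form CACGTG (6.02% of all windows) was in none of the 4 windows. The cAMP response half-site TGACG (17.8%), the TATA motif TATAAA (12.4%) and TCACNCCAC (1.05%), 1 form of the SREBP motif, were in none of them either. Other forms of the SREBP motif were not searched, so the windows may hold an SREBP site. The motif CACCC occurred 5 times in the Agpat2 window and 2 times in each Srebf1 window, and 52.0% of all windows hold it. Both strands were searched. A match describes the letters only, and the array probe does not tell which start of Srebf1 was used.

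Lpl (Entrez 16956) had log2 ratios of 0.37 on array 1, 2.29 on array 3, and 0.16, 0.28 and 0.82 on arrays 4, 5 and 6. All were positive, array 3 stood far above the others, and the orientations overlapped. Array 2 gave no value, since 121 spots with ratios from -4.89 to 2.70 are possible. The orientation means were 1.33 ± 1.36 (SD, n = 2 arrays) and 0.42 ± 0.35 (SD, n = 3 arrays), and the mean of both was 0.87 ± 0.25 (SE). Without array 3 it was 0.39, or 1.31-fold. The orientation difference of -0.92 ± 0.50 (SE) did not pass (limma adjusted p = 0.528). Lpl stood at percentile 99.7 on array 3 and at percentile 66.5 on array 4.

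On array 3, the 16 probes nearest to Lpl had a median ratio of 0.62, against -0.11 to 0.10 on arrays 1, 4, 5 and 6. Less that median, Lpl was at 1.68 on array 3 and at 0.17 to 0.71 on the others. Neighbours of Dgat2 had medians of 0.30, 0.16 and 0.18 on arrays 1 to 3 and -0.24 to 0.17 on arrays 4 to 6. The remainder for Dgat2 was 1.52 to 1.93 on arrays 1 to 3 and 0.25 to 0.71 on arrays 4 to 6. Around Dgat1, Agpat2 and Srebf1, neighbour medians lay between -0.20 and 0.25. What part neighbouring probes have in the Lpl ratio of array 3 was not tested.

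**Figure D2:**
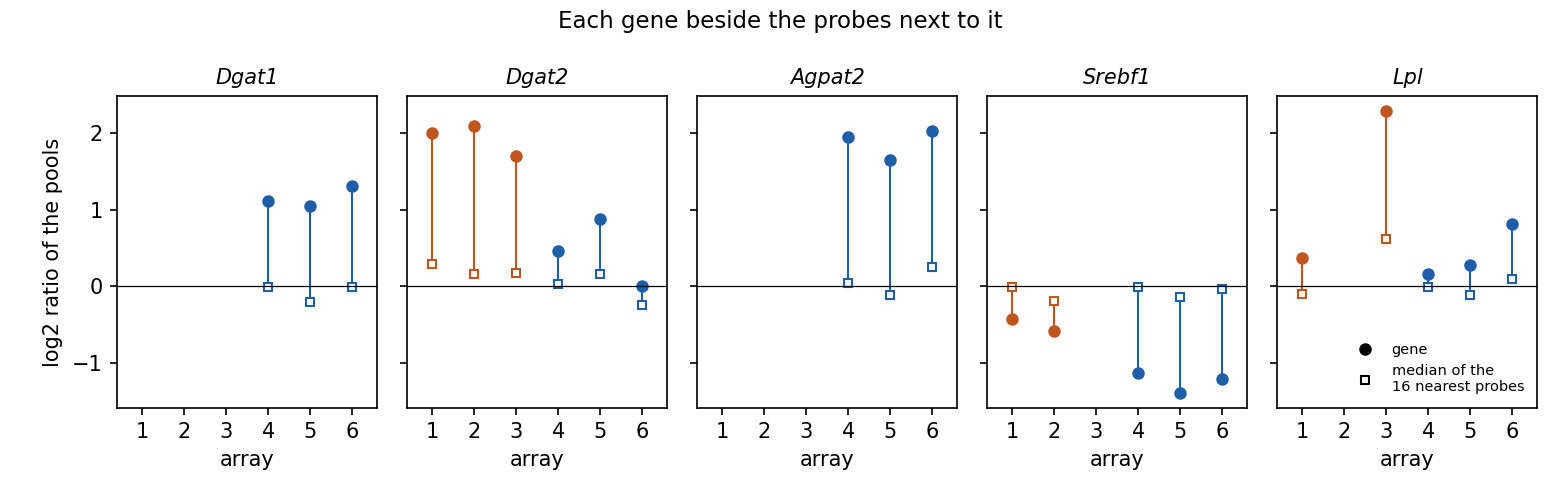
Log2 ratio of each gene (filled circles) and the median of its 16 nearest probes (open squares) on each array with a value; orange is the CL-316,243 pool in channel 1 and blue in channel 2. The squares stay within 0.30 of 0 except for Lpl on array 3, at 0.62.

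In the pool comparison, 400 of 12451 genes tested (3.21%) passed limma's adjusted threshold of 0.05, 242 with positive and 158 with negative ratios. The count was 145 of 7685 tested without array 1, 358 of 7773 without array 3, 214 of 12415 without array 4 and 114 of 11485 without array 5. By size, 394 genes (3.16%) had a mean of at least 1.5-fold and 1 sign on every array. Of the 5 genes, 3 had values on at least 2 arrays of each orientation and entered this fit. As the genes were picked on this contrast, their own outcome in it is not given. Dgat1 and Agpat2 could not enter, with 0 arrays of channel 1. The median ratio over all genes tested was -0.01.

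**Figure D3:**
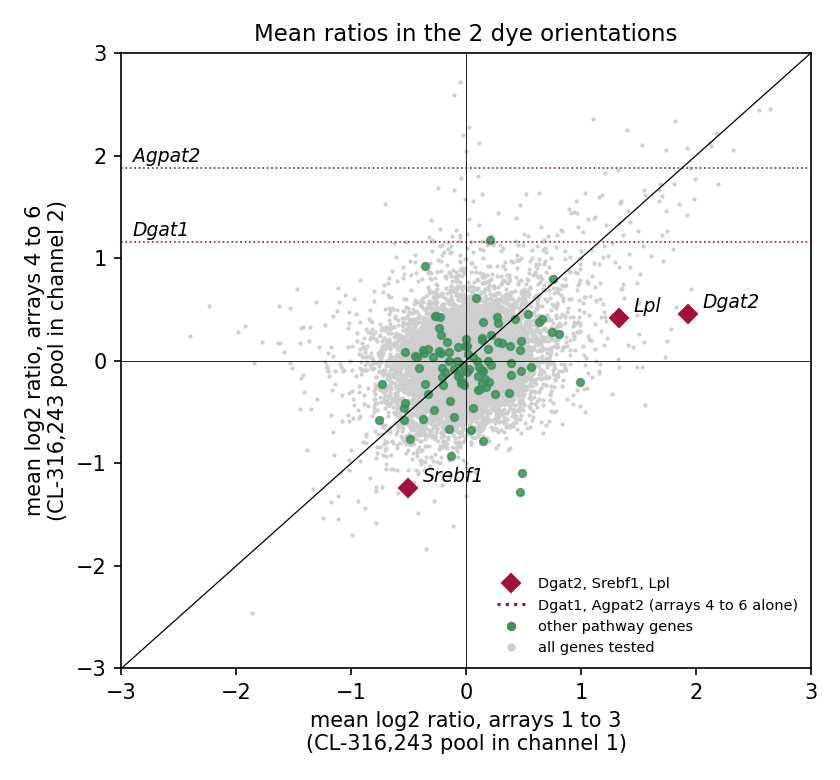
Mean log2 ratio with the CL-316,243 pool in channel 1 (horizontal axis) and in channel 2 (vertical axis) for the 12451 genes tested (grey), the other pathway genes (green) and Dgat2, Srebf1 and Lpl (diamonds); dotted lines are Dgat1 and Agpat2, known on the vertical axis only, and 12 genes lie beyond the axes. Dgat2 (1.93 and 0.45) and Lpl (1.33 and 0.42) lie to the right of the line of equal means, and Srebf1 (-0.50 and -1.24) below it.

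Genes whose ratios ran closest to each gene were taken by the root mean square difference over the arrays that measured it. For Agpat2, over 3 arrays and 11479 genes, they were Ccl7, a chemokine (0.18), and Akap12 and Akap2, anchors of protein kinase A (0.22 and 0.24). For Dgat1, over the same arrays, they were Orai1, a calcium channel (0.12), C9orf72 (0.16) and Ier3, an immediate early gene (0.17). These matches rest on arrays 4 to 6 and say nothing of arrays 1 to 3. There Ccl7 was at 2.22 and 1.26 on arrays 1 and 3, and Orai1 at 0.51, 1.08 and 0.75 on arrays 1 to 3.

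For Srebf1, over 5 arrays and 7640 genes, the closest were Bnip3l, a mitophagy receptor (0.11), Pxdn, a matrix peroxidase (0.18), and Rnf145, a ubiquitin ligase of the endoplasmic reticulum (0.21). Bnip3l was at -0.29, -0.72 and -0.35 on arrays 1 to 3 and at -1.11, -1.42 and -1.03 on arrays 4 to 6, where array 3 had no part in the match. Dgat2 had no close match: over 6 arrays and 7529 genes, Hsp25-ps1, 1810018F18Rik and Klk6 differed from it by 0.51 to 0.52. For Lpl, over 5 arrays and 11344 genes, the closest were Prdx1, a peroxiredoxin (0.22), 2210403K04Rik (0.28) and Idh3g, a citrate cycle subunit (0.30). These 3 genes had their highest ratio on array 3, at 2.21, 1.93 and 2.82. Array 3 was part of the match to Lpl, so a high ratio there follows from the choice.

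The other genes of lipid synthesis and uptake were read from lists of 141 genes, of which 109 had a probe and 99 were tested. Of these, 3 (3.03%) passed, against 3.21% of all genes tested, with 28 at an unadjusted p under 0.05. That is 28.3% of the list genes, against 18.4% of all genes tested (2286 of 12451), a difference that was not tested. Without array 1, 3, 4 or 5, 1 of the list genes passed, of 62, 61, 98 and 91 tested. Their median ratio was -0.03, with 46 of 99 positive.

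Of the other 20 genes of glycerolipid synthesis tested, among them enzymes of the steps around Agpat2 and Dgat1, 0 passed the limma threshold and 4 had an unadjusted p under 0.05. Their median was 0.01, with 11 positive. Chpt1, which makes phosphatidylcholine from diacylglycerol, had the most negative mean at -0.53 ± 0.16 (SE, limma adjusted p = 0.117). Its ratios were -0.40 and 0.14 on arrays 1 and 3 and -1.42, -0.83 and -0.54 on arrays 4 to 6, negative on 4 of 5. Plpp3, a lipid phosphate phosphatase, was at 0.51 ± 0.16 (SE), positive on 5 of 6 arrays (limma adjusted p = 0.126).

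Fatty acid activation and glycerol 3-phosphate supply held 2 of the 3 calls among 8 genes tested. Acsl4, an acyl-CoA synthetase that prefers arachidonate, was higher in the numerator pool by 0.78 ± 0.12 (SE, limma adjusted p = 0.00717), or 1.71-fold. Acsl4 was positive on 6 of 6 arrays. Its values were 0.75, 0.90 and 0.61 on arrays 1 to 3 and 1.14, 0.77 and 0.48 on arrays 4 to 6, so the orientations overlapped. Acsl5, another acyl-CoA synthetase, was higher in the numerator pool by 0.49 ± 0.11 (SE, limma adjusted p = 0.0357), with 0.20 to 0.67 over 6 arrays. Leaving out any 1 array took the call of Acsl5 away (limma adjusted p of 0.0502 to 0.153). The median of the list was -0.14. Gpd1, which makes glycerol 3-phosphate, was at 0.53 ± 0.14 (SE, limma adjusted p = 0.0679). Aqp7, the glycerol channel of fat cells, was at -0.50 ± 0.12 (SE, limma adjusted p = 0.0659) and negative on 5 of 5 arrays.

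Among 21 genes of fatty acid synthesis tested, the pathway SREBP-1 activates, 0 passed the limma threshold and 4 had an unadjusted p under 0.05. Their median was -0.04, with 10 positive. Me1, malic enzyme, a source of NADPH, was at 0.69 ± 0.17 (SE, limma adjusted p = 0.0634). Its ratios were 0.07, -0.37 and 0.92 on arrays 1 to 3 and 1.67, 1.03 and 0.84 on arrays 4 to 6. Oxsm, of mitochondrial fatty acid synthesis, was at 0.42 ± 0.12 (SE) and positive on 6 of 6 arrays (limma adjusted p = 0.102).

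Of 17 SREBP processing genes and lipogenic transcription factors tested, 1 passed. Sirt1, a deacetylase that acts on SREBP-1 among other proteins, was lower in the numerator pool by 0.63 on the log2 scale (SE 0.12, limma adjusted p = 0.0250). Sirt1 ratios were negative on 5 of 5 arrays. Its values were -0.60 and -0.39 on arrays 1 and 3 and -0.81, -0.87 and -0.62 on arrays 4 to 6. Without array 4 or array 5 Sirt1 was not called (limma adjusted p = 0.0705 and 0.111), and without array 1 or 3 it was not tested. Insig2, which holds SREBPs in the endoplasmic reticulum, was at -0.56 ± 0.15 (SE, limma adjusted p = 0.0845). Cebpa, a factor of fat cell differentiation, was at 0.53 ± 0.19 (SE, limma adjusted p = 0.176), with 1.81 on array 3 and -0.05 to 0.48 elsewhere. The median of this list was -0.02.

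Of 12 genes of cholesterol synthesis and uptake tested, a pathway driven by SREBP-2, 0 passed and 3 had an unadjusted p under 0.05, with a median of -0.06. Nsdhl was at -0.48 ± 0.12 (SE, limma adjusted p = 0.0663) and Fdps at 0.35 ± 0.16 (SE, limma adjusted p = 0.297). Of 21 genes of lipoprotein lipase handling and fatty acid uptake tested, 0 passed the limma threshold and 6 had an unadjusted p under 0.05, with a median of -0.03. Fabp5, a fatty acid binding protein, was at -0.67 ± 0.24 (SE, limma adjusted p = 0.182). Apoc3, an inhibitor of lipoprotein lipase, was at 0.51 ± 0.13 (SE, limma adjusted p = 0.0869).

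**Figure D4:**
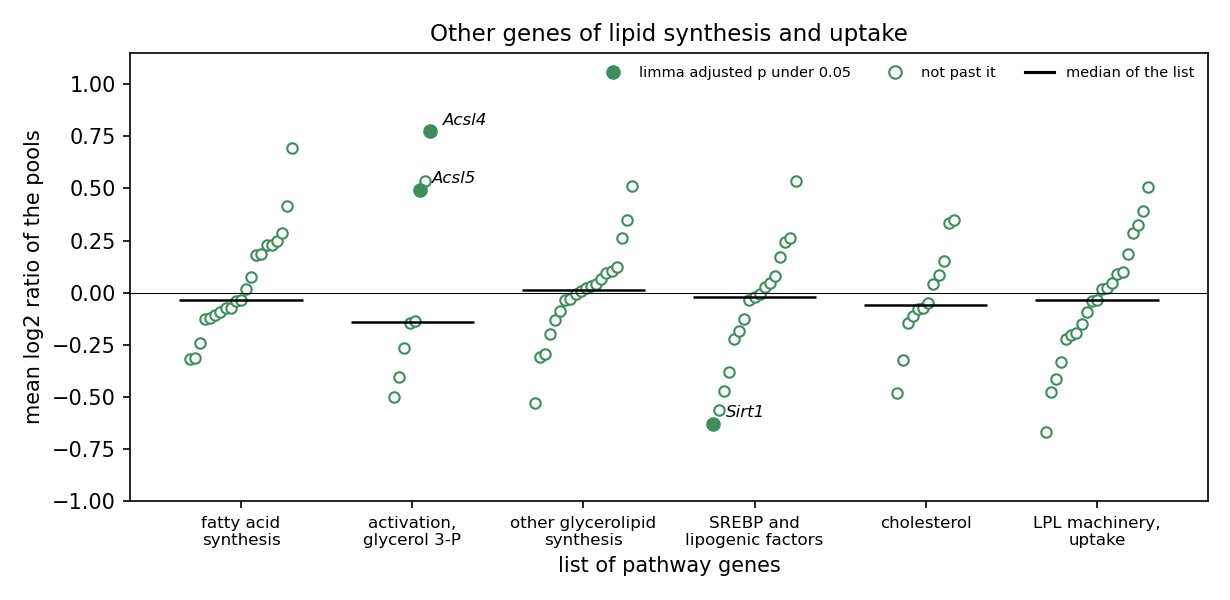
Mean log2 ratio (vertical axis) of each tested gene in 6 lists of pathway genes (horizontal axis, genes ordered by ratio within a list); filled points passed the limma threshold and bars are list medians. The medians lie between -0.14 and 0.01, and Acsl4, Acsl5 and Sirt1 are the filled points.

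Markers of cells and tissues that fat can hold were read the same way. Of 13 adipocyte genes tested, 1 passed and 8 had an unadjusted p under 0.05. Adipocyte means were positive for 9 of 13 and ran from -0.50 (Aqp7) to 1.17. The gene that passed was Plin4, a lipid droplet coat protein (1.01 ± 0.19 SE, limma adjusted p = 0.0348), which was not tested without array 1, 3, 5 or 6. The adipocyte median was 0.34, at 0.61 in the orientation of arrays 1 to 3 and 0.12 in that of arrays 4 to 6, and ran from -0.05 on array 6 to 0.69 on array 3. Dgat2, Lpl and Srebf1 (-0.50 against -1.24) had their higher mean on arrays 1 to 3 as well, where Dgat1 and Agpat2 had no value. That direction was not particular to the adipocyte list. Medians were also higher there for the endothelial list (-0.01 against -0.20) and the seminal vesicle and epididymis list (-0.94 against -1.37). Of all pathway and marker lists, only cholesterol (-0.03 against 0.01) and lipoprotein lipase handling (-0.15 against -0.06) went the other way. A link between the markers and these genes was not tested. Of 11 macrophage genes, 1 passed, Mpeg1 (-0.69 ± 0.15 SE, limma adjusted p = 0.0375), with 5 at an unadjusted p under 0.05. The macrophage median was -0.26, between -0.42 and 0.12 over arrays, and 4 of 11 means were positive, up to 0.56. Mpeg1 lost its call without array 1, 2, 4, 5 or 6 (limma adjusted p of 0.0715 to 0.118). Endothelial markers, which bear on the site where lipase is bound, passed 0 of 10 in the limma fit, with 2 at an unadjusted p under 0.05 and a median of -0.16. The fibroblast and preadipocyte list passed 0 of 8, with 1 at an unadjusted p under 0.05 and a median of -0.05.

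Seminal vesicle and epididymis are organs of the male tract close to this fat depot, and 6 of their 9 genes tested passed. Svs5 was at -5.47, Svs2 at -4.98, Pate4 at -2.73, Svs6 at -2.17 and Svs4 at -1.16, while Serpina1f was at 4.68. The list's median was -1.16 and was negative on all 6 arrays, from -2.11 to -0.23. Of 7 brown adipocyte genes, 2 passed, Dio2 at 1.18 and Ppargc1a at 0.77, with 5 at an unadjusted p under 0.05 and a list median of 0.45. Left-out arrays ended the call of Svs4 and Ppargc1a (array 1, 2, 4 or 5) and of Dio2 (array 5), with limma adjusted p of 0.0513 to 0.125. The part of any of these cell types or tissues in the ratios of Dgat1, Dgat2, Agpat2, Srebf1 and Lpl was not tested.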

How the data were processed

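RNA of 6 mice per treatment was pooled and labelled for tyramide signal amplification (fluorescein read as Cy3, biotin as Cy5) and quantified in QuantArray, per the labels. The deposited values are log ratios of the channels, taken here as log2, and a uniform scale factor and LOWESS had been applied, per the labels. The labels do not state the log base, the numerator, the background correction or the rule that dropped spots. The labels name the agonist CL316,246 in 1 place and CL-316,243 in the titles, which is used here.

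Columns were placed on 19200 probe numbers with a hidden Markov model that lets a column lose spots and never gain them. A run on simulated columns took its correlations from the placed arrays and its loss runs from the model's own setting. It therefore cannot show how often positions in these columns are right. The model used normal scores clipped at 3, a probability of 0.5 that a loss continued, and 3 rounds. Arrays 5 and 6 were placed together, then 4, then 1 and 3 together, then 2, because arrays 1 and 3 placed one by one can hold each other at a wrong number. Values with a posterior of at least 0.95 were kept. Since the placement seeks agreement between arrays, it also raises that agreement.

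Of 14717 probes listed in the platform annotation, 14711 have 1 symbol and 6 several, which were not named. Probes of a gene were averaged. Ratios were fitted with limma 3.58.1 in R 4.3.3 (lmFit, eBayes) with orientation as a covariate, over genes with values on at least 2 arrays of each orientation, with Benjamini-Hochberg adjustment. Means are means of the orientation means. Named genes are the 5 genes, every called gene of a pathway list, the 2 largest ratios in size among its other genes, and the 3 closest genes by root mean square difference. Further calls of the marker lists, single markers included, were named after their values were seen. The genes and all lists were chosen with earlier results of these data known. Alternatives covered placement, signs, scaling, weights, robust fits and arrays left out.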

Additional observations from a re-analysis of the deposited data

Results flagged for a closer look

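Tie1, a receptor of endothelial cells, had opposite signs in the orientations. Its log2 ratios were 0.03 and 0.07 on arrays 1 and 3 and -1.17, -0.62 and -0.45 on arrays 4 to 6, with no value on array 2. The difference, channel 2 minus channel 1, was -0.80, and the test over all genes did not pass it (limma adjusted p = 0.406). Orientation groups hold 3 arrays, too few for a check of single arrays that stand apart. Of the 5 genes, none changed sign between orientations where both were measured, which is the case for Dgat2, Srebf1 and Lpl.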

How the results depend on the processing

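Dgat2, Srebf1 and Lpl kept their sign in 19 of 19, 18 of 18 and 18 of 18 alternatives that placed the columns with deposited signs. Dgat1 and Agpat2 did so in 15 of 15 each, but many of these alternatives returned the same means, 1.16 and 1.87. Such alternatives left the values of arrays 4 to 6 as they were, so the sign could not change in them. Each of the 5 genes had 1 sign on every array with a value. Leaving out, weighting or scaling arrays therefore could not change the sign of Dgat2, Srebf1 or Lpl either. The counts of kept signs are thus no support for the signs. With rows read as deposited, the means were -0.075 for Dgat1, 0.27 for Dgat2, -0.095 for Agpat2 and -0.044 for Srebf1, and limma called 0 of 13409 genes (489 at an unadjusted p under 0.05), 0 pathway genes (3) and 0 genes in the orientation term (495). With the signs of arrays 1 to 3 turned, the means were 0.86, -0.74, 0.99 and -0.37 in that order. Calls were then 27 of 5132 genes, 0 of the pathway (9 unadjusted) and 108 in the orientation term. Placement with turned signs kept 40.2%, 29.2% and 40.0% of probes on arrays 1, 2 and 3, against 96.0%, 61.8% and 95.2% with deposited signs. Alternatives chosen after seeing the data were a posterior of 0.5 (Dgat1 0.51, Agpat2 0.89), each column placed alone (0.58 and 0.97) and a running median along probe numbers subtracted. With the probes of the 5 genes carrying no information in the placement, their means were the same. Scaled arrays called 5 pathway genes, array weights 883 genes and 12 of the pathway, and robust regression 1130 and 12, with 2 in the orientation term. Calls over all genes ran from 114 without array 5 to 358 without array 3, and were 145 without array 1 and 214 without array 4. Fewer genes were tested without array 1 (7685) or array 3 (7773). Calls of the pathway were 1 without array 1, 3, 4 or 5 and 3 otherwise. Leaving out 1 array gave 1.08 to 1.21 for Dgat1, 1.80 to 1.99 for Agpat2, 1.08 to 1.30 for Dgat2, -0.91 to -0.83 for Srebf1 and 0.39 to 1.35 for Lpl. Arrays 1 to 3 alone called 70 genes and 0 of the pathway (19 unadjusted), and arrays 4 to 6 alone 245 genes and 4 of the pathway (26 unadjusted). Across these settings Acsl4 was called in 17 of 20 tested, Acsl5 in 11 of 20 and Sirt1 in 13 of 18. The causes were not tested. Each ratio compares both pools on the same array, so the pool comparison is paired within arrays. The orientations could not be paired with each other, as array numbers are not shared between them. Ratios come without intensities, so their signal over background is unknown.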
